A study of Mus musculus with 4 samples.

Results

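The interferon-stimulated and antigen presentation genes described here are 43 mouse genes chosen by symbol, with earlier results of these data known. They comprise the transcription factors, nucleic acid sensors and antiviral effectors of the interferon response, together with class I major histocompatibility genes and interferon-responsive chemokines. Of the 43 symbols, 40 had a row in the expression table of 25050 genes, and the expression of Ifih1, Cmpk2 and H2-K1 was not analysed here. Values are normalised reads, that is read counts scaled by the submitters to a common library size. A mean of at least 10 of them over the libraries was reached by 39 of the 40, among 15540 genes tested, and Rsad2 was below it. The RNA came from HT-22 cells at passages 21 to 24. HT-22 is an immortalised mouse line derived from the hippocampus. There were 2 groups of 2 sequencing libraries: wild type cells, and cells of the same line that overexpress Nsmce1. The design text also calls the controls uninduced cells of an inducible Nsmce1 line. It is not given whether the overexpressing cells are 1 clone, or whether the libraries of a group are separate cultures, and so the p-values reflect only how far these samples spread.

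In an infected cell, foreign or misplaced nucleic acid is bound by RNA sensors such as Rig-I (Ddx58) and Mda5 (Ifih1) or by the DNA sensor cGas (Mb21d1) with its adaptor Sting (Tmem173). The sensors activate Irf3 and Irf7, which switch on interferon genes. Secreted interferon then acts through Jak kinases on a complex with Stat2 and Irf9, which binds the interferon-stimulated response element in the promoters of antiviral genes, while Irf1 serves the response to interferon gamma. Neurons are known for low surface class I, which interferon can raise.

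The whole reads behind the values numbered 25787452 and 31010351 for wild type and 32516117 and 44602989 for overexpressing libraries. Nsmce1 itself, a RING domain protein of the SMC5/6 complex, had 1108 and 1206 normalised reads in wild type cells and 17851 and 16525 with overexpression, and so matched the labels. Over all genes tested, 16 were higher and 14 lower at a limma adjusted p under 0.05. The label of a neuron was matched in part: of 15 neuronal markers, 9 had a row and 4 were tested. Syn1 had 1024 to 1219 normalised reads, Tubb3 446 to 622 and Camk2a 30.5 to 108. Gap43 had 23.9 and 44.2 in wild type cells and 7 and 0 with overexpression. All 4 were lower on average with overexpression, and none passed the test. By contrast, Syt1 had 13 reads in all, Slc17a7 11 and Dcx 3. The mesenchymal collagen Col1a1 had 66303 to 82796 normalised reads. Of 15 leukocyte and microglia markers 9 had a row, with summed levels of 2627 and 2337 normalised reads in wild type cells and 2085 and 1962 with overexpression. Most of that sum was Tmem119, which was lower with overexpression without overlap, at 2184 and 1830 against 1587 and 1494 normalised reads. Tmem119 did not pass the test (limma adjusted p = 0.465). Cd14 had 289 to 366 normalised reads and Aif1 40.1 to 67.4, and Csf1r had 13 reads in all. Ptprc was at 0 in 3 of the 4 libraries and Cx3cr1 at 0 in both overexpressing libraries. Fcer1g was at 0 in both wild type libraries and Itgam at 0 in all but overexpression replicate 2. Ptprc, Cx3cr1, Fcer1g and Itgam each had 8 reads or fewer in all. Cd68 was higher with overexpression without overlap, at 88.0 and 70.6 against 132 and 101 normalised reads, and did not pass the test (limma adjusted p = 0.659). Of all genes tested, 20.8% were higher and 18.3% lower without overlap. The part of leukocytes or microglia in the results was not tested.

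The comparison asked how the genes of this response differed between overexpressing and wild type cells. Fold changes are overexpression minus wild type on the log2 scale, fitted with limma, a linear model that shares the estimate of spread between genes. None of the 39 tested genes passed the threshold of 0.05 (limma, Benjamini-Hochberg adjusted p over all genes), beside 0.193% of all genes tested, and none passed by limma voom on the whole reads. Before adjustment, 4 of the 39 had a limma p under 0.05: Irgm1, Oas1a, Mx1 and Gbp7. That is 10.3% against 7.92% of all genes. The smallest adjusted p among the 39 was 0.274. Of the 39 log2 fold changes, 16 lay above and 23 below 0, with a median of -0.043, against a median of 0.0054 over all genes tested. For 29 of them the 95% interval lay within a 2-fold change in either direction (74.4%, against 77.0% of all genes). For 20 it lay within 1.5-fold (51.3%, against 59.8% of all genes). The 10 whose intervals reached beyond 2-fold were Oas1a, Oas2, Oas3, Dhx58, Mx1, Mx2, Gbp7, Ifit3, Ifi44 and Ccl5. The highest value in any library among these was 543 normalised reads, for Gbp7. With 2 libraries against 2, an exact two-sided permutation test of a single gene cannot give a p below 0.33, so these values rest on limma's pooled variance. In bulk RNA, fewer cells that express a gene and less of its RNA per cell cannot be told apart.

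The groups did not overlap for 7 genes that were higher and 12 that were lower. In the first, Isg20, Oas1a, Oas2, Mx1, Mx2, Bst2 and Gbp7, both overexpressing libraries lay above both wild type libraries (17.9%, beside 20.8% of all genes tested). In the other 12 both lay below (30.8%, beside 18.3% of all genes): Ifit2, Ifit3, Oasl2, Ddx58, Tmem173, Ifi35, Ifitm2, Ifitm3, Irgm1, B2m, Tapbp and H2-D1. The first share was near that of all genes, and the second was above it, a difference that was not tested. Of the 12, Irgm1 was lower by 1.39-fold, Ifit3 by 1.29-fold and Oasl2 by 1.23-fold, and each of the others by 1.11-fold or less.

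**Figure D1:**
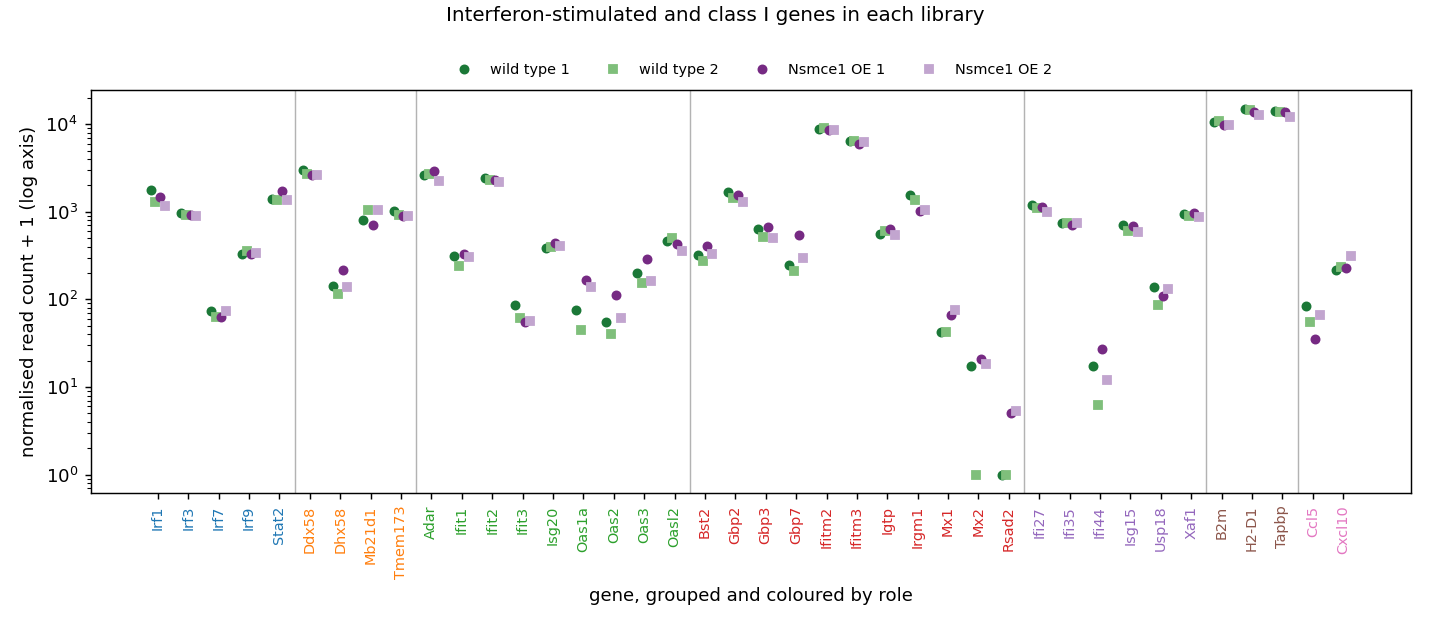
Normalised read count plus 1 (log axis) of the 40 genes in each of the 4 libraries, grouped from left to right as transcription factors, RNA and DNA sensors, RNA and translation effectors, GTPases and membrane proteins, the Isg15 system and others, class I genes, and chemokines. The class I genes and Ifitm2 and Ifitm3 stand highest with libraries close together, while Mx2, Rsad2, Ifi44, Oas1a, Oas2 and Gbp7 spread most.

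Levels of different genes were compared as normalised reads per kilobase of annotated exon. On that scale Ifitm2 (13226), B2m (11922), Ifitm3 (9236), H2-D1 (5430) and Tapbp (3706) lay between percentiles 97.5 and 99.4 of all genes tested. Isg15 stood at 852 and Ifi27 at 753 per kilobase, at percentiles 86.4 and 84.4. At the low end Oas2 (14.8), Mx1 (14.7), Mx2 (3.73) and Ifi44 (2.39) were all below Irf7 (17.9, percentile 13.7), and Ifi44 stood at percentile 0.99. Ifitm2, Ifitm3, B2m, H2-D1 and Tapbp were thus among the most abundant messages over the 4 libraries, and Mx1, Mx2 and Oas2 among the least abundant.

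The promoters of these genes were read from RefSeq (GRCm38.p6) to show which of them carry the sequence that interferon-activated factors bind. A promoter window was found for 34 of the 43 genes, and none for Oas2, Usp18, Dhx58, Tmem173, Mx1, Mx2, Ccl5, Ifi27 and Mb21d1. For 28 of the 34 genes the bases just after a window lay in an annotated transcript of that gene, and for the rest no such match was found. The 250 bases before each start site were searched on both strands for GAAANNGAAA, the core of the interferon-stimulated response element, and for TTCNNNGAA, the gamma-activated site of interferon gamma targets. The first was in 16 of the 34 genes (37.2% of their 43 windows, against 2.98% of all 32851 windows of this length) and the second in 7 of them (16.3% against 7.02% of windows). Matches can overlap each other. Shown whole are the promoters of the genes with the smallest p in either direction, Oas1a and Irgm1, 5′ to 3′ with the matches to GAAANNGAAA or its reverse complement in capitals.
Oas1a chr5:120907526-120907775 - strand: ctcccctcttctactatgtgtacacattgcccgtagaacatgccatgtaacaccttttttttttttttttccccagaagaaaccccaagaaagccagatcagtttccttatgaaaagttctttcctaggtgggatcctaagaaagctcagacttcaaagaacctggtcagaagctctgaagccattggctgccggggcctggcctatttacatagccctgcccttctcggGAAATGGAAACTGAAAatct
Irgm1 chr11:48871421-48871670 - strand: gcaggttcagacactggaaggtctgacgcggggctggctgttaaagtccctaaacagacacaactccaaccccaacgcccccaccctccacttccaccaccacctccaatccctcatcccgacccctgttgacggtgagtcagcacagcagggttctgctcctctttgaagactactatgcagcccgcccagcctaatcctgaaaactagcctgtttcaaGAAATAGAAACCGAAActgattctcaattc

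Both carry a run of 3 GAAA repeats close to the start site, with its last base at position 5 before it in Oas1a and at position 15 in Irgm1. Oas1a was higher and Irgm1 lower in the overexpressing cells. The next stretches, of 50 bases each, hold the match nearest to the start site. They come from the 3 listed guanylate-binding protein genes, all on chromosome 3, and from 5 other genes. They are shown because genes with differing values carry the same pattern, GAAANNGAAA or its reverse complement. The letters at N and the number of matches differ between them.
Gbp7 chr3:142530263-142530312 + strand: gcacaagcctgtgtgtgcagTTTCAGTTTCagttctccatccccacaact
Gbp3 chr3:142559985-142560034 + strand: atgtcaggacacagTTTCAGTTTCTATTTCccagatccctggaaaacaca
Gbp2 chr3:142620584-142620633 + strand: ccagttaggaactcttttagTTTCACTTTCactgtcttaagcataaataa
Igtp chr11:58199502-58199551 + strand: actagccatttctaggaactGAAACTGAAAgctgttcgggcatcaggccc
Isg15 chr4:156200855-156200904 - strand: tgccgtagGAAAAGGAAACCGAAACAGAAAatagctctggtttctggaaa
Ifit1 chr19:34640784-34640833 + strand: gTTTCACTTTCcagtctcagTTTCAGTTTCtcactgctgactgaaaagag
B2m chr2:122147528-122147577 + strand: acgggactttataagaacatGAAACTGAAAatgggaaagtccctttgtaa
Bst2 chr8:71537567-71537616 - strand: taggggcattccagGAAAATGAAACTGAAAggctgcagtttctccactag

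Of the 15 tested genes with GAAANNGAAA in the window, 8 lay above and 7 below 0, with log2 fold changes from -0.48 to 1.40 and a median of 0.018. Of the 15 tested genes whose windows did not hold it, 3 lay above and 12 below 0, with a median of -0.069. Genes with TTCNNNGAA numbered 7 (Gbp7, Oas1a, Isg20, Bst2, Irf1, Igtp and Ifit2), 4 above and 3 below 0, with a median of 0.10. These are descriptions of the letters in a window, and no test was made of them.

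Among the transcription factors, 1 of 5 lay above 0 and the groups overlapped for all 5. Stat2, a transcription factor of the type I interferon response, had 1379 and 1348 normalised reads in wild type cells and 1708 and 1358 in overexpressing cells. Overexpression replicate 1 stood alone above the other libraries, and the log2 fold change was 0.16 (95% interval -0.15 to 0.47). Stat2 lies on chromosome 10, where the median over tested genes was 0.14 on the log2 scale, and with chromosome medians removed it stood at 0.016. Irf9, the DNA-binding subunit of the same complex, had 327 and 359 against 327 and 337 normalised reads. Irf3, the factor that sensors activate first, had 957 and 908 against 921 and 888. Irf7, the amplifier of the interferon response and itself interferon-induced, was low, with 72.9 and 62.1 against 62 and 73.0 normalised reads (log2 fold change -0.00093, interval -0.60 to 0.60). Irf1, the main factor of the interferon gamma response, had 1755 and 1293 in wild type and 1457 and 1169 with overexpression, so that the 2 libraries of each group differed more (0.44 and 0.32 on the log2 scale) than the groups did (log2 fold change -0.21, SE 0.177).

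Of the 4 sensors with values, Dhx58 was above 0 and the other 3 below. Ddx58, the sensor Rig-I, had 3018 and 2727 normalised reads in wild type cells and 2617 and 2623 in overexpressing cells, without overlap (log2 fold change -0.13, interval -0.34 to 0.080, limma adjusted p = 0.748). Tmem173, the adaptor Sting, had 1032 and 917 against 887 and 896 (log2 fold change -0.13, interval -0.38 to 0.13). Both differences between means are smaller than that between the wild type libraries. Mb21d1, the DNA sensor cGas, had 812 and 1041 against 708 and 1052, with replicate 1 low in both groups. Dhx58, the regulator Lgp2, had 141 and 114 against 216 and 137 normalised reads, with overexpression replicate 1 alone above the rest (log2 fold change 0.44, interval -0.21 to 1.09).

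The RNA and translation effectors divided into 5 above and 4 below 0, with a median log2 fold change of 0.10, and held the largest log2 fold change of the set apart from Mx2. Oas1a, an oligoadenylate synthetase that activates RNase L, had 74.2 and 43.2 normalised reads in wild type cells and 165 and 139 in overexpressing cells. Both overexpressing libraries were above both wild type libraries, by 2.64-fold on average (interval 1.58 to 4.43, SE of the log2 fold change 0.306). It ranked 195th by p among all genes and missed the threshold (limma adjusted p = 0.284). Leaving out 1 library at a time gave log2 fold changes from 1.02 to 1.79. Of the 50-base windows of its longest transcript, 57.6% also occur in other Oas1 genes, mostly Oas1g, so reads can be split between them. Oas1g, named after its values were seen, had 126 and 107 against 114 and 83.9 normalised reads. For Oas1g the groups overlapped.

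Oas2, a larger synthetase of the same chromosome 5 cluster, had 54.1 and 39.0 normalised reads in wild type cells and 111 and 59.9 with overexpression (log2 fold change 0.82, interval -0.087 to 1.72). The groups barely parted, and without overexpression replicate 1 the value was 0.38. Oas3, the third synthetase of the cluster, had 197 and 153 against 285 and 162, where a single library was high. Oasl2, an Oas-like protein with ubiquitin-like domains, was lower, with 460 and 496 against 427 and 351 (log2 fold change -0.30, interval -0.66 to 0.051). The Oas genes therefore did not share a direction, and none passed the test.

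Ifit proteins bind viral RNA and block its translation. Ifit2, the most abundant of the 3 per kilobase, had 2456 and 2314 normalised reads in wild type cells and 2284 and 2191 in overexpressing cells (log2 fold change -0.091, interval -0.29 to 0.11). Ifit3 had 84.3 and 60.0 against 54 and 55.5, and shares 51.2% of its 50-base windows with Ifit3b, which leaves its value uncertain. Ifit1 lay on the other side of 0, with 309 and 240 against 327 and 301. Isg20, an exonuclease of RNA, had 390 and 393 against 435 and 406, a parting of 1.07-fold with an interval of 0.873 to 1.32. Adar, the RNA editing enzyme that marks cellular RNA as self, had 2657 and 2688 in wild type and 2928 and 2218 with overexpression. Its overexpressing libraries lay on opposite sides of the wild type pair.

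**Figure D2:**
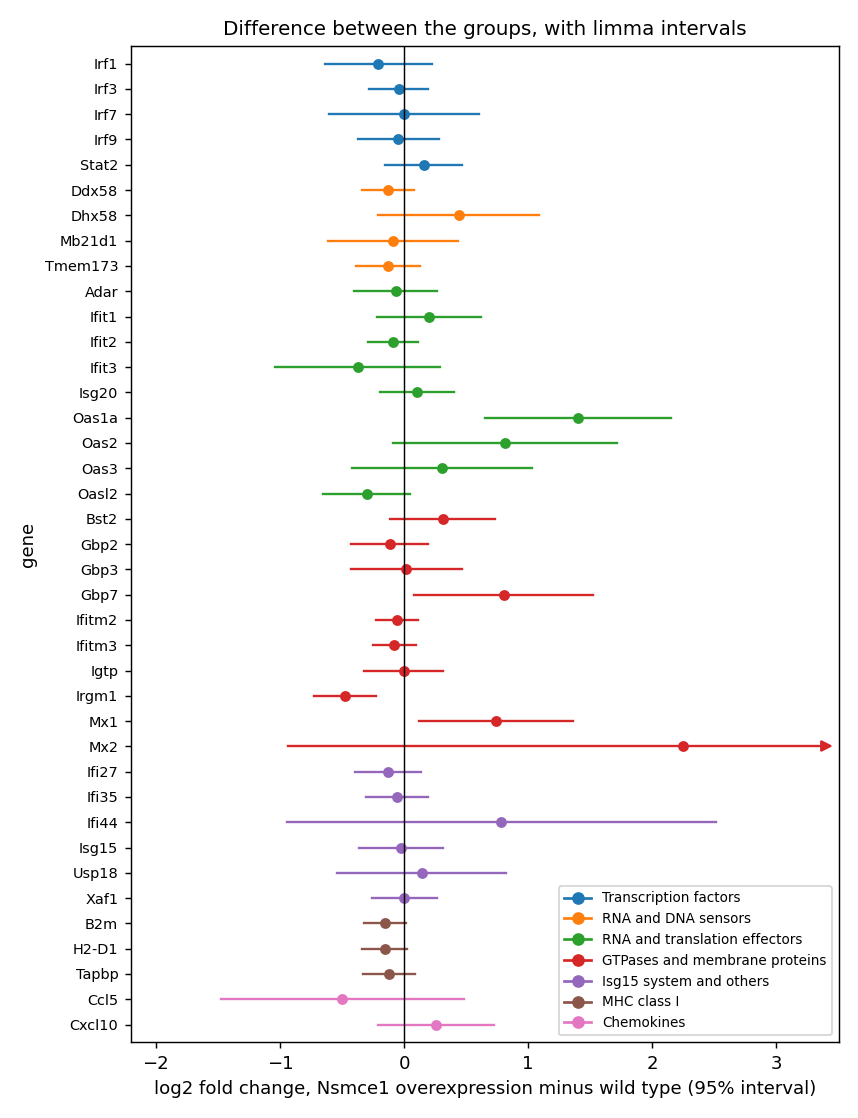
Log2 fold change of the 39 tested genes (points, Nsmce1 overexpression minus wild type) with 95% limma intervals (lines), coloured by role, and the interval of Mx2 continues beyond the axis. The intervals of Irgm1, Oas1a, Mx1 and Gbp7 leave out 0 before adjustment, and 29 of the 39 lie within a 2-fold change.

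Among the GTPases and membrane-acting proteins 5 of the 10 tested lay above and 5 below 0. Irgm1, an immunity-related GTPase that acts on membranes in autophagy and the control of intracellular microbes, had the smallest p of all 39 genes. It had 1543 and 1355 normalised reads in wild type cells and 1028 and 1047 in overexpressing cells. The groups were well apart, 1.39-fold lower with overexpression (log2 fold change -0.48, SE 0.103, interval -0.73 to -0.23), and Irgm1 still missed the threshold (limma adjusted p = 0.274). Leaving out 1 library at a time gave values from -0.57 to -0.39. Igtp, also called Irgm3 and located on the same chromosome, had 563 and 607 against 635 and 537, where the groups overlapped (log2 fold change -0.0022, interval -0.32 to 0.32). Igtp shares exons with Irgm2 on the same strand and 12.3% of its 50-base windows, so its reads can be shared.

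Gbp2, Gbp3 and Gbp7, guanylate-binding proteins that coat microbe-containing vacuoles, lie together on chromosome 3 and carry the elements printed above. Gbp7 had 248 and 210 normalised reads in wild type cells and 543 and 292 with overexpression (log2 fold change 0.80, interval 0.084 to 1.52, limma adjusted p = 0.563). The larger part came from 1 library: without overexpression replicate 1 the log2 fold change was 0.36, and without overexpression replicate 2 it was 1.25. Its neighbours overlapped between the groups, with 1661 and 1446 against 1571 and 1302 for Gbp2 and 631 and 509 against 664 and 496 for Gbp3. In all 3 genes overexpression replicate 1 was above overexpression replicate 2.

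Mx1, a dynamin-like GTPase that traps viral nucleoproteins, had 41.5 and 41.1 normalised reads in wild type cells and 66 and 73.7 in overexpressing cells, without overlap. Its log2 fold change of 0.74 (interval 0.12 to 1.36, limma adjusted p = 0.549) was smaller with the median of chromosome 16 removed, at 0.58 with an interval of -0.036 to 1.20. Over the tested genes of that chromosome the median was 0.17. Mx2, which GENCODE lists as a polymorphic pseudogene, had 16.3 and 0 against 20 and 17.5 normalised reads. Its log2 fold change of 2.24 rested on the 0 of wild type replicate 2 and was 0.19 without that library. Bst2, the tetherin that holds budding virus at the membrane, had 322 and 271 against 411 and 327 (log2 fold change 0.31, interval -0.11 to 0.73). Rsad2, the radical enzyme viperin, had 0 reads in each wild type library, and 4 and 6 in the overexpressing ones. Against a floor of 3 reads over the wild type group, its observed level was 2.45-fold higher with overexpression. The counting error of its own 10 reads is not in that figure, and Rsad2 was not tested.

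The membrane restriction factors Ifitm2 and Ifitm3, which block fusion of viruses in endosomes, were the most precisely measured genes of this group. Ifitm2 had 8693 and 8966 normalised reads in wild type cells and 8482 and 8511 with overexpression (log2 fold change -0.055, interval -0.22 to 0.11). Ifitm3 had 6484 and 6376 against 5960 and 6229 (log2 fold change -0.078, interval -0.25 to 0.098). Both stood slightly lower in the overexpressing cells, and as folds the intervals ran from 0.856 to 1.08 for Ifitm2 and from 0.839 to 1.07 for Ifitm3. Ifitm2 shares 48.5% of its 50-base windows with other annotated genes, so its level can include reads of copies.

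Isg15, the ubiquitin-like protein that is attached to other proteins in the interferon response, had 705 and 596 normalised reads in wild type cells and 685 and 591 in overexpressing cells. The groups overlapped, and replicate 1 was above replicate 2 in each. Usp18, which removes Isg15 and damps the interferon receptor, had 136 and 85.3 against 107 and 132. Ifi27 had 1195 and 1113 against 1125 and 988, Ifi35 had 753 and 746 against 703 and 739, and Xaf1, a promoter of apoptosis, had 942 and 885 against 963 and 868. Ifi44 had 16.3 and 5.27 against 26 and 10.9, too few for more than an interval of -0.94 to 2.51. Of these 6 genes 3 lay above and 3 below 0, with a median log2 fold change of -0.013.

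All 3 class I genes with values were lower in the overexpressing cells without overlap, by 1.09-fold to 1.11-fold. Of all genes tested, 18.3% were lower without overlap. The 3 genes share their libraries, and their shift as a set was not tested. B2m, the light chain of every class I molecule, had 10631 and 10979 normalised reads in wild type cells and 9751 and 9649.5 with overexpression (log2 fold change -0.16, SE 0.0687, interval -0.32 to 0.012, limma adjusted p = 0.657). H2-D1, a classical class I heavy chain, had 15043 and 14459 against 13706 and 12810 (log2 fold change -0.15, interval -0.34 to 0.026, limma adjusted p = 0.678). Tapbp, encoding tapasin, which holds class I at the peptide transporter, had 14172 and 13814 against 13731 and 12066 (log2 fold change -0.12, interval -0.33 to 0.089). For Tapbp the lowest wild type and the highest overexpressing library nearly met. None of the 3 passed the test, and each interval lay within a 1.5-fold change. H2-D1 shares 14.3% of its 50-base windows with other class I genes, and Tapbp overlaps exons of Zbtb22.

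Both chemokines were expressed, with groups that overlapped. Cxcl10, a T cell attractant induced by interferon, had 214 and 231 normalised reads in wild type cells and 228 and 310 in overexpressing cells (log2 fold change 0.26, interval -0.21 to 0.73). Ccl5, induced by Irf3 and NF-kB, had 82.99 and 53.7 against 34 and 65.0 (log2 fold change -0.50, interval -1.47 to 0.48). The pair lay on opposite sides of 0, and overexpression replicate 2 was above overexpression replicate 1 for both.

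The spread of these genes within a group was uneven. Wild type replicate 1 lay above wild type replicate 2 for 30 of the 39 genes, against 49.3% of all genes tested, with a median difference of 0.15 on the log2 scale. Overexpression replicate 1 lay above overexpression replicate 2 for 25 of the 39, against 49.6% of all genes, with a median difference of 0.12. Wild type replicate 1 was the highest library for 16 genes and overexpression replicate 1 for 15, while the replicates numbered 2 were the highest for 4 each. By role, the median deviation of overexpression replicate 1 from a gene's mean over the libraries was 0.16 for the RNA and translation effectors and 0.17 for the GTPases and membrane proteins. In overexpression replicate 2 those medians were -0.076 and -0.035. The genes share their libraries, so these counts describe 4 libraries and carry no test.

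**Figure D3:**
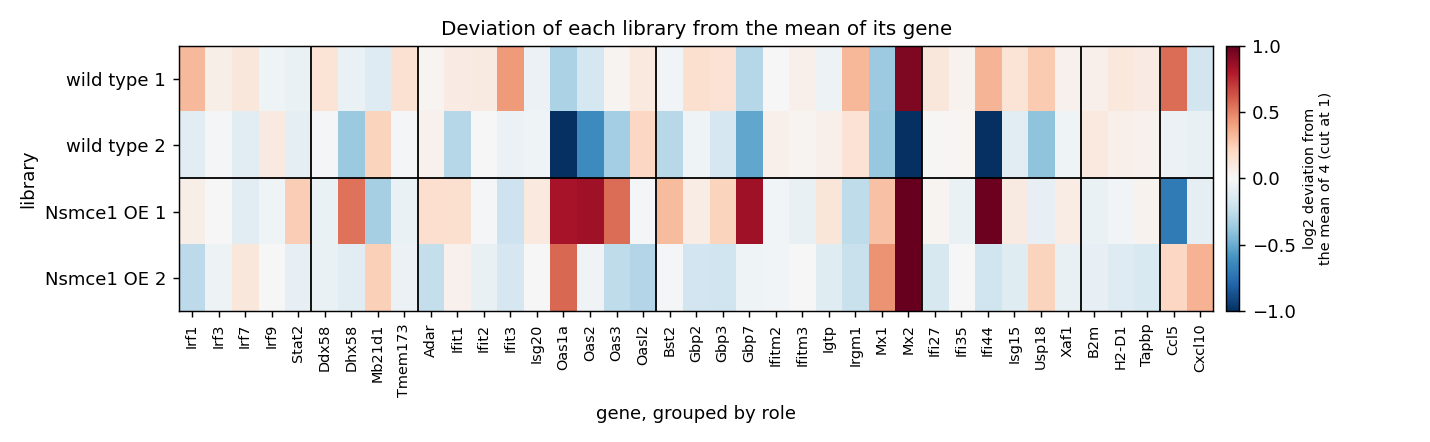
Log2 deviation of each library from the mean of the 4 libraries (colour, limited to 1 in either direction) for the 39 tested genes, grouped by role. Overexpression replicate 1 is high for Oas1a, Oas2, Oas3, Dhx58, Gbp7 and Ifi44, and wild type replicate 2 is low for Oas1a, Mx2 and Ifi44.

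Reads of the annotated neighbours can enter some of these values. Irf9, Igtp and Tapbp overlap exons of the tested genes Rnf31, Irgm2 and Zbtb22 on the same strand. Irf1, Irf3, Irf7, Adar, Dhx58 and Tapbp overlap exons of a tested gene on the opposite strand, whose reads cannot be told apart if the counting did not use strand, which no source used here states.

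The rest of the pathway was followed in 6 lists of 130 other genes, of which 99 were tested. None of the 99 passed over all genes tested by limma (0.193% of all genes did) or by limma voom, and 15 had an unadjusted limma p under 0.05 (15.2%, against 7.92% of all genes tested). Among the interferons and related cytokines, Ifnb1, the interferon beta gene, had 2 reads in each wild type library and 0 in the overexpressing ones. Ifne, interferon epsilon, had 0 in wild type and 6 in each overexpressing library. Against a floor of 3 reads its observed level was 2.94-fold higher, a figure without the counting error of its own reads. Both genes are near the limit of counting. The only tested gene of that list was Il18, an inducer of interferon gamma, with 253 and 225 against 335 and 283 normalised reads (log2 fold change 0.37, interval -0.021 to 0.75).

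Of 15 tested receptor, Jak and Stat genes, 7 lay above and 8 below 0, with a median log2 fold change of -0.0052. Jak2, the kinase of the interferon gamma receptor, had 1843 and 1772 against 2202 and 2168 normalised reads, without overlap (log2 fold change 0.27, interval 0.075 to 0.47, limma adjusted p = 0.467). Ifnar1, the signalling chain of the type I receptor, had a log2 fold change of 0.16, and of 0.0015 with the median of its chromosome, 16, removed. Stat3, which many cytokines activate, stood at 0.17 (interval -0.046 to 0.39). Each of the 15 intervals lay within a 2-fold change, and 14 within 1.5-fold.

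Of 23 tested genes of sensing and signalling, 13 lay above and 10 below 0. Traf3, an adaptor between sensors and the kinase Tbk1, had 1037 and 929 normalised reads in wild type cells and 1385 and 1784 with overexpression (log2 fold change 0.68, interval 0.33 to 1.03, limma adjusted p = 0.265). Tbk1, which phosphorylates Irf3, had 3408 and 2722 against 3687 and 3772 (log2 fold change 0.29, and 0.15 with the median of chromosome 10 removed). Tlr3, the endosomal sensor of double-stranded RNA, was on the other side, with 322 and 297 against 211 and 257 (log2 fold change -0.41, interval -0.80 to -0.013). In all 3, named for the smallest p of the list, the groups did not overlap, and none passed the test. Over the 23 genes, the groups did not overlap for 6 that were higher and 6 that were lower. That is 26.1% each, beside 20.8% and 18.3% of all genes.

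Of 37 further interferon-stimulated genes tested, 11 lay above and 26 below 0, with a median log2 fold change of -0.082. The groups did not overlap for 8 that were higher (21.6%, beside 20.8% of all genes) and 10 that were lower (27.0%, beside 18.3%). The 3 with the smallest p were all lower. Tgtp1, an immunity-related GTPase like Irgm1 and on the same chromosome, had 474 and 337 normalised reads in wild type cells and 206 and 123 in overexpressing cells (log2 fold change -1.32, interval -2.02 to -0.62, limma adjusted p = 0.284). Its near-identical copy Tgtp2 had 575 and 420 against 281 and 161 (log2 fold change -1.21), and reads can be split between them, so the pair is not 2 separate observations. Rtp4, a receptor transport protein that also limits viral replication, had 142 and 133 against 46 and 79.6 (log2 fold change -1.17, interval -1.90 to -0.43, limma adjusted p = 0.385). With the median of its chromosome, 16, removed it stood at -1.33.

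The class I pathway list beyond B2m, Tapbp and H2-D1 had 6 of 20 tested genes above and 14 below 0, with a median log2 fold change of -0.12. Among the 6 was H2-Ke6 (log2 fold change 0.0076), which carries an H2 name but is not a class I presentation gene. The groups did not overlap for 5 genes that were lower (25.0%, beside 18.3% of all genes) and 0 that were higher (beside 20.8%). Psmb10, a catalytic subunit of the immunoproteasome that cuts peptides for class I, had 440 and 491 normalised reads in wild type cells and 316 and 339 with overexpression (log2 fold change -0.50, interval -0.82 to -0.18, limma adjusted p = 0.395). H2-T23, the heavy chain of the non-classical molecule Qa-1, had 109 and 77.9 against 48 and 43.1 (log2 fold change -1.01, interval -1.67 to -0.34, limma adjusted p = 0.418). Canx, the chaperone calnexin that folds class I heavy chains among many other glycoproteins, had 23293 and 23436 against 18739 and 20330 (log2 fold change -0.26, interval -0.44 to -0.078, limma adjusted p = 0.453). None of the 20 passed the test.

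Of 9 class II genes 7 had a row and 3 were tested, all with log2 fold changes below 0. H2-DMa and H2-DMb1 form the chaperone that loads peptides on class II. H2-DMb1 had 443 and 517 against 485 and 377 normalised reads (log2 fold change -0.16), and H2-DMa had 148 and 145 against 136 and 114 (-0.24). Cd74, the invariant chain, had 55.3 and 51.6 against 62 and 26.3 (-0.39). The 3 intervals included 0. The chain gene H2-Eb1 had 3 reads in all and H2-Ab1 had 2.

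**Figure D4:**
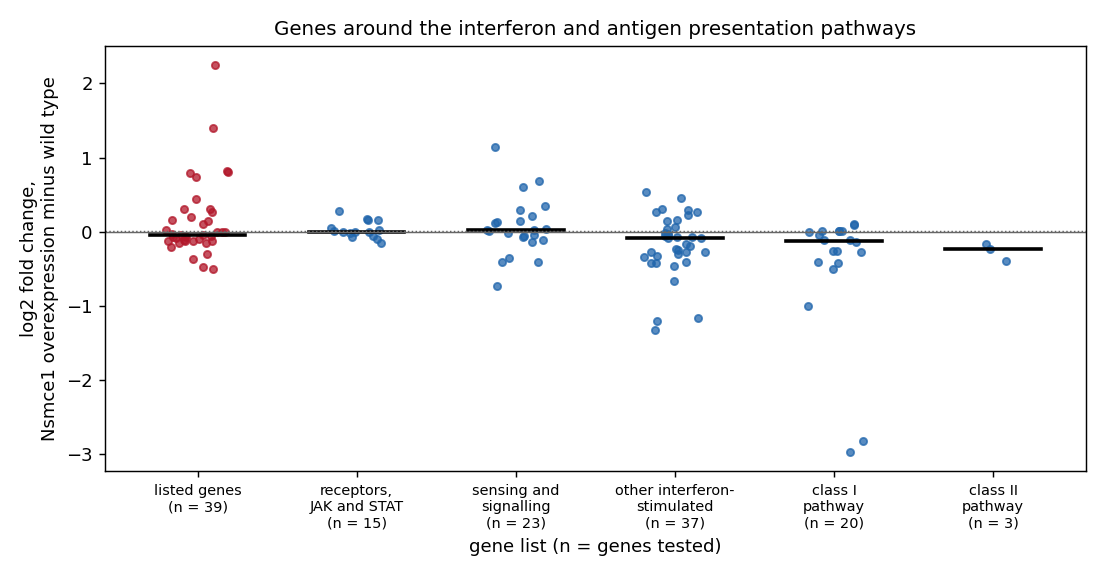
Log2 fold changes (Nsmce1 overexpression minus wild type) of the 39 listed genes (red) and of the tested genes in 5 pathway lists (blue), with black lines at the medians and a dotted line at the median of all genes tested. The medians of the class I and class II lists lie at -0.12 and -0.24.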

How the data were processed

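RNA sequencing of 4 HT-22 libraries, 2 wild type and 2 overexpressing Nsmce1, was analysed. Trizol RNA, TruSeq libraries and BGISEQ sequencing were used, per the labels' protocols. HISAT, Cufflinks and the build mm9 are listed without role or version, per the submitters' processing notes. The deposited table holds 1 log2 value per gene and library. The values behave as log2(normalised read count + 1): undone, 100% were a whole number of reads times 1 factor per library (tolerance 0.001 read, or a millionth of the count where that is larger). That factor was 1.26 and 1.05 for wild type and 1.00 and 0.730 for overexpression.

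Genes with a mean of at least 10 normalised reads were fitted with limma 3.58.1 (R 4.3.3), with a mean-variance trend and group as the only term. P-values are two-sided, adjusted by Benjamini-Hochberg over 15540 genes, and called under 0.05. The pseudocount of 1 makes fold changes of low genes too small. Total degrees of freedom were 6.10. The steps were tested on simulated data. Counts of replicates differed beyond sampling noise (chi-square per gene 18.1 for the wild type pair, 25.7 for the other). Exon lengths, overlaps, chromosomes and shared 50-base windows came from GENCODE M21 (GRCm38), matched by identifier for 15503 of the tested genes. That build is not the authors', so no gene coordinates are given. Floors cover counting error only, and only that of the group at 0.

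Members, role groups and lists were chosen with earlier results of these data known. The rule for named genes was every member, Nsmce1 and, from each pathway list, called genes or otherwise the 3 with the smallest p. Oas1g, the low-count genes, and the genes of the closing section were named after their values were seen. Alternatives were pseudocounts of 0.1 and 5, no filter and a minimum of 50, a common median, quantile normalisation, chromosome medians removed, limma without trend, with robust variances and with voom, a term for the replicate number, leaving out any 1 library, and an adjusted p under 0.1. Counts of genes whose groups do not overlap were also repeated under the scalings, chosen after seeing the data.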

Additional observations from a re-analysis of the deposited data

How the results depend on the processing

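No listed gene passed the threshold under any of the alternatives run. The smallest adjusted p in the limma fits was 0.104, for Gbp7 without Nsmce1 overexpression replicate 2. The median log2 fold change of the listed genes stayed below 0 in each fit that gave one, between -0.064 and -0.0052. The count of all genes called moved from 30 to 16 without a filter, 18 with quantile normalisation, 9 without a trend, 72 with robust variances, 60 with the replicate block, 69 at an adjusted p under 0.1, and between 2 (without wild type replicate 1) and 75 (without overexpression replicate 2) with a library left out. Pathway genes called were 2 with the replicate block (Tgtp1 and Tgtp2, both lower, limma adjusted p = 0.0409 and 0.0480) and 0 to 1 with a library left out, the 1 being Trim25 without overexpression replicate 1 (limma adjusted p = 0.0343). It is not given whether libraries of the same replicate number are paired. The replicate differences of the groups correlated at r = 0.0068 across all genes tested. Among the 39 listed genes, replicate 1 was above replicate 2 in both groups for 20 (51.3%, against 27.3% of all genes tested). The block changed no call among the listed genes. The cause of these shifts was not tested.

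Of 622 values of single listed genes under the alternatives, 28 had the opposite sign, for 13 genes, none of them called in any setting. With a common median Irf7 stood at 0.0031 and Igtp at 0.0018, and with quantile normalisation at 0.0044 and 0.0033. With chromosome medians removed Igtp was 0.037 and Gbp3 -0.017, and with voom Xaf1 was -0.0014 and Irf7 0.019. With single libraries left out the log2 fold changes ranged from -0.12 to 0.12 for Irf7 and for Igtp, -0.43 to 0.013 for Irf1, -0.15 to 0.093 for Isg15, -0.073 to 0.077 for Xaf1, -0.19 to 0.47 for Usp18, -0.11 to 0.022 for Irf9, -0.19 to 0.23 for Gbp3, -0.38 to 0.19 for Mb21d1, -0.0055 to 0.32 for Stat2, -0.099 to 0.71 for Oas3, -0.27 to 0.13 for Adar and -0.25 to 0.020 for Gbp2. Counts of listed genes whose groups do not overlap were 6 to 8 higher and 10 to 11 lower under the other scalings. The shares of all genes under those scalings are not given here, so no excess can be read from these counts. Depth limits genes under about 100 normalised reads, such as Mx2 and Ifi44.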

Other observations

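The genes in this section were named after their values were seen. Some genes next to the listed ones stood apart in a single library. H2-Q4, a class I gene whose reads can be shared with its close relatives, had 449 normalised reads in wild type replicate 1, against 7.37 in the other wild type library and 8 and 5.84 in the overexpressing ones. H2-Q1 had 49.0 in wild type replicate 1 and 0 in the other 3 libraries. Trim25, the ubiquitin ligase that acts on Rig-I, had 3253 and 3206 normalised reads in wild type, 3596 in overexpression replicate 1 and 1647 in overexpression replicate 2. Ube2l6, the enzyme that passes Isg15 to its targets, had 751 and 442 in wild type and 788 and 263 with overexpression. Its libraries numbered 1 were thus high in both groups, as for many of the listed genes.

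Dtx3l and Parp9, partners in an interferon-induced complex neighbours on chromosome 16, stood at 0.31 and 0.26 on the log2 fold change scale, and their groups did not overlap. Neither passed the test. With the chromosome's median removed they stood at 0.15 and 0.10.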
